A study of Mus musculus with 11 samples.

Results

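Major histocompatibility complex (MHC) class II molecules display peptides from the endosomes of a cell to CD4+ T cells. Their alpha and beta chains are assembled with the invariant chain, proteases trim the invariant chain in the endosome, and the H2-DM proteins then exchange its last fragment for a peptide. Langerhans cells (LCs), the antigen-presenting cells of the epithelium, are known for a high level of these molecules. The 8 genes described here are Cd74, H2-Aa, H2-Ab1, H2-Eb1, H2-DMa, H2-DMb1, Ciita and Ctss, which were chosen by name and are 8 of the 19170 genes with values in the deposited table. Each of them had a value in each mouse.

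RNA was sequenced from the gingival epithelium of 11 male langerin-DTR mice, whose langerin promoter drives a receptor for diphtheria toxin, and in which an injection of the toxin (DT) kills langerin-expressing cells. PBS was given to 5 mice (PBS 1 to PBS 5) and DT to 6 mice (DT 1 to DT 6) at 17, 24 and 31 days of age, and epithelium was taken at 8 weeks, when LCs had been allowed to repopulate the gingiva. All 11 mice carried the transgene, so the groups differ by the injection. The comparison of DT with PBS asks whether class II transcripts of the adult epithelium differed after LCs had been removed during weaning. Langerin is not restricted to the LCs of this tissue, and a bulk library does not tell which cells gave a transcript.

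The libraries of the PBS mice held 17667564 to 22180195 reads on genes and those of the DT mice 17509328 to 24325513. The values are normalized counts, which are reads divided by a size factor of the mouse. Keratinocyte markers were high in each mouse, with Krt5, a keratin of basal cells, between 80136 and 96899 normalized counts, as the label of an epithelium requires. DT was tested against PBS with limma on the log2 of the normalized count plus 1, p-values were adjusted by Benjamini-Hochberg over all 19170 genes, and the threshold was 0.1. At this threshold 107 genes (0.558%) were called, of which 47 were lower after DT (0.245%) and 60 higher (0.313%).

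Class II genes are known to share a promoter module, in which an X box bound by the RFX complex and by CREB lies upstream of a Y box bound by NF-Y. The coactivator CIITA docks on these proteins. The table of RefSeq promoters (GRCm38.p6) has windows of 300 bases, from 250 before to 50 after the start of transcription, for 5 of the 8 genes. In 3 of these 5 genes the letters AACNGATG (X1) or TGACGTCA (X2) were followed on the same strand, after 10 to 40 bases, by ATTGG (Y). Of all 32851 windows in the table, 0.17% held such an arrangement on either strand. This arrangement was searched for after the windows had been seen. The stretches below are shown because they hold the module, with the matched letters in capitals, including the longer Y match CTGATTGG where present. H2-Aa is at chr17:34287852-34287912 on the minus strand, H2-Eb1 at chr17:34305763-34305827 and H2-DMb1 at chr17:34153084-34153149 on the plus strand.
H2-Aa: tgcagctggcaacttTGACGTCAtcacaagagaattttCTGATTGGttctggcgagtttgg
H2-Eb1: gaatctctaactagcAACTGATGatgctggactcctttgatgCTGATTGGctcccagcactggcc
H2-DMb1: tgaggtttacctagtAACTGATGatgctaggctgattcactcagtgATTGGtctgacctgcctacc

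The ATTGG of the Y match began 48 bases before the start of H2-Aa, 59 before that of H2-Eb1 and 61 before that of H2-DMb1. Between the X match and this ATTGG lay 18, 22 and 23 bases, which count the CTG of the longer match where present. H2-Eb2 and H2-DMb2, neighbours of the same families on chromosome 17, held the arrangement as well, while the windows of H2-Oa and H2-Ob did not. Ctss, on chromosome 3, held AACNGATG at position -207 with no Y match at that spacing, and the H2-DMa windows held a lone ATTGG. Searched singly on both strands, ATTGG stood in 37.4% of all windows, ACAGATG in 5.01%, CTGATTGG in 4.10%, AACNGATG in 2.32% and TGACGTCA in 1.79%. CTGATTGG contains ATTGG, so these matches overlap.

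None of the 8 genes passed the threshold between DT and PBS. Each had a log2 fold change below 0, from -0.57 for Ciita to -0.29 for Ctss, with a median of -0.42, where the median of all genes tested was -0.01 and 52.7% of genes were below 0. At an unadjusted p under 0.05 there were 2 of the 8, Cd74 and Ciita, where 11.5% of all genes reached it and 6.19% did so with a lower level after DT. The PBS and DT mice overlapped for each of the 8 genes, and the groups did not overlap in 1.65% of all genes. Since these genes vary together from mouse to mouse, their common sign is not 8 separate observations.

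**Figure D1:**
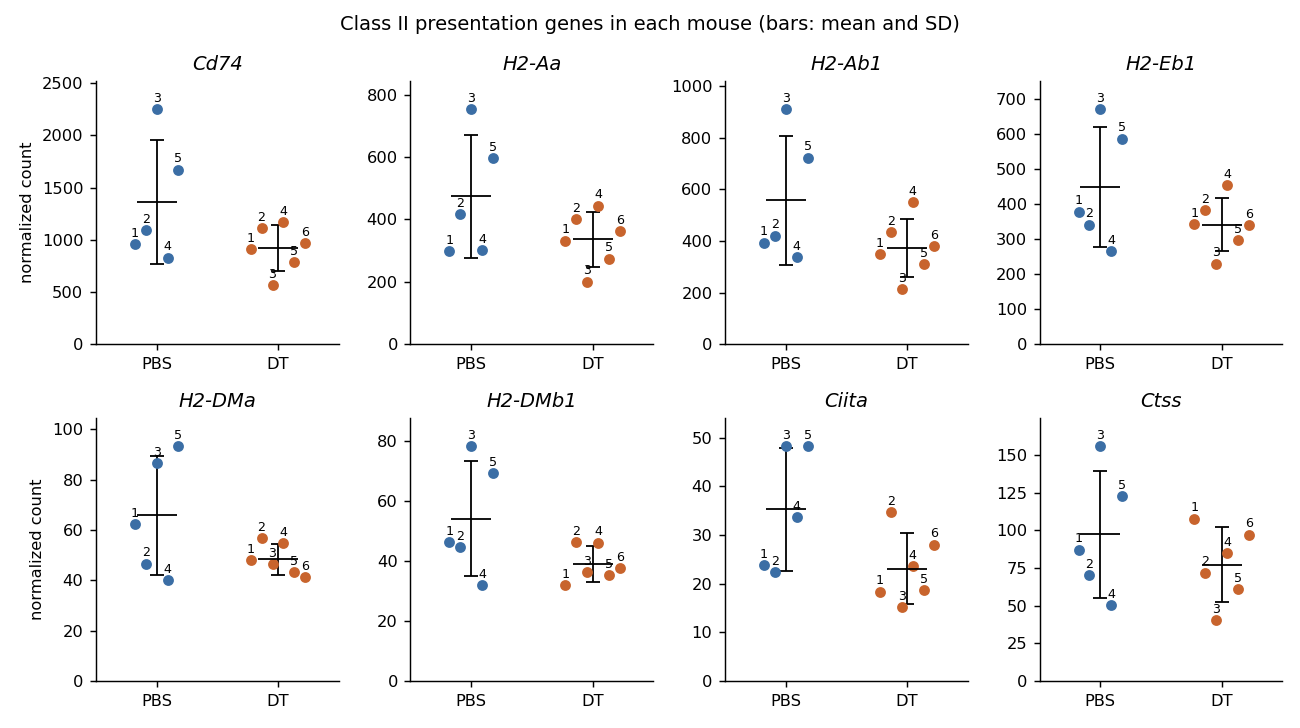
Normalized counts (y axis, from 0) of the 8 genes in the 5 PBS and 6 DT mice, with mouse numbers beside the points and bars for the mean and SD. PBS 3 and PBS 5 are the highest 2 mice in each panel, and for Cd74 the other 3 PBS mice lie among the DT mice.

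Cd74, the invariant chain that guides class II molecules to the endosome, was measured at 957, 1095, 2251, 829.6 and 1674 normalized counts in mice PBS 1 to PBS 5, in that order, and at 911, 1114, 564, 1169, 788 and 965 in mice DT 1 to DT 6. PBS 3 and PBS 5 were above each DT mouse, while the other 3 PBS mice lay within the range of the DT mice. The mean was 1361 ± 593 normalized counts after PBS (SD, n = 5) and 919 ± 222 after DT (SD, n = 6). The log2 fold change was -0.50 (SE, the standard error, 0.23, adjusted p = 0.409 by limma), a fold of 0.705 with a 95% interval of 0.504 to 0.986 that is not adjusted for the number of genes. Over all 462 ways to split the mice, a two-sided exact permutation test gave p = 0.147 (0.240 adjusted over the 8 genes).

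H2-Ab1, the beta chain of the I-A molecule, had 394, 421, 911, 337 and 724 normalized counts in the PBS mice and 349.6, 433, 213, 549.6, 312 and 379.8 in the DT mice. H2-Aa, the alpha chain of I-A, had 299, 418, 753, 301 and 597 in the PBS mice and 332, 401, 200.5, 444, 275 and 362 in the DT mice. Both chains were highest in PBS 3 and PBS 5 and lowest in DT 3. H2-Ab1 was 557 ± 248 after PBS (SD, n = 5) and 373 ± 114 after DT (SD, n = 6), with a log2 fold change of -0.53 (SE 0.25, adjusted p = 0.436 by limma). H2-Aa was 474 ± 198 and 336 ± 88.2, with a log2 fold change of -0.44 (SE 0.24, adjusted p = 0.491 by limma). H2-Eb1, the beta chain of the I-E molecule, had 379, 342, 672, 267 and 588 normalized counts in the PBS mice and 344, 383, 231, 454, 298 and 341 in the DT mice. It too was highest in PBS 3 and PBS 5 and lowest in DT 3, and its log2 fold change was -0.34 (SE 0.21, adjusted p = 0.567 by limma). H2-Ea, the alpha chain that pairs with it, was listed without a value.

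H2-DMa and H2-DMb1 encode chains of H2-DM, which loads the peptide. H2-DMa had 62.2, 46.6, 86.5, 40.1 and 93.4 normalized counts in the PBS mice and 48.1, 56.6, 46.3, 54.75, 43.2 and 41.1 in the DT mice. H2-DMb1 had 46.4, 44.7, 78.5, 31.9 and 69.25 in the PBS mice and 32.1, 46.5, 36.3, 46.2, 35.3 and 37.6 in the DT mice. For both genes PBS 4, not DT 3, was the lowest mouse, and the DT mice were close to each other, spanning 1.38-fold for H2-DMa and 1.45-fold for H2-DMb1 against 2.33-fold and 2.46-fold among the PBS mice. The log2 fold change was -0.37 for H2-DMa (SE 0.20, adjusted p = 0.506 by limma) and -0.40 for H2-DMb1 (SE 0.21, adjusted p = 0.481 by limma).

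Ciita, the coactivator of class II transcription, had 23.8, 22.4, 48.3, 33.7 and 48.3 normalized counts in the PBS mice and 18.3, 34.6, 15.1, 23.6, 18.6 and 28.0 in the DT mice. With 3 of 6 DT mice below each PBS mouse it had the largest difference of the 8 genes, a log2 fold change of -0.57 (SE 0.26, adjusted p = 0.412 by limma). Its exact permutation p was 0.0844 (0.240 adjusted over the 8 genes). Only 15 to 48 reads per mouse lay behind it, for which counting alone gives an error of about 18.5%. Ctss, which encodes cathepsin S, a protease that trims the invariant chain, had 87.1, 69.97, 156, 50.1 and 123 in the PBS mice and 108, 71.8, 40.3, 84.8, 60.8 and 97.1 in the DT mice. The groups were interleaved apart from PBS 3 and PBS 5, and the log2 fold change was -0.29 (SE 0.28, adjusted p = 0.743 by limma).

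**Figure D2:**
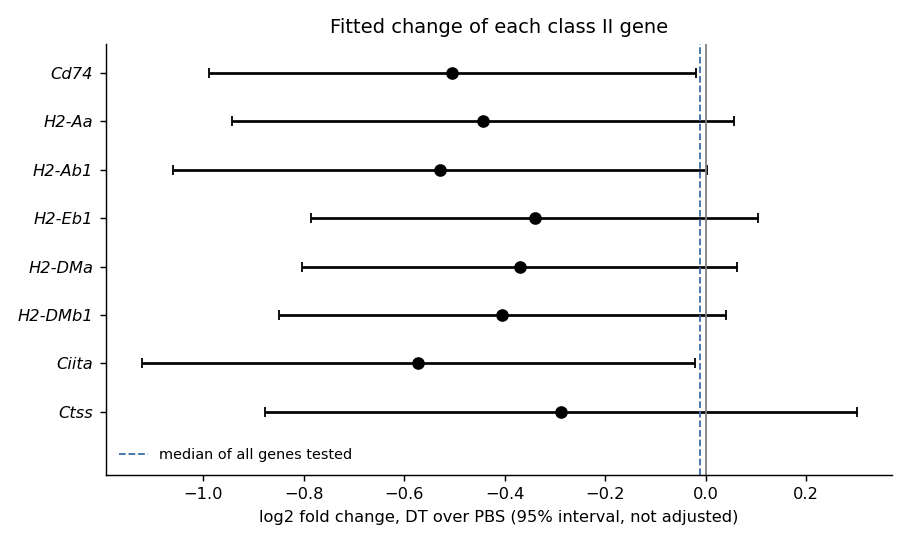
Log2 fold change of DT over PBS (x axis) for each of the 8 genes, with 95% intervals from limma that are not adjusted for the number of genes. The points lie between -0.57 and -0.29, and the intervals of Cd74 and Ciita alone end below 0.

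The intervals describe each gene by itself and are not adjusted for the number of genes. For Cd74 the log2 interval ran from -0.99 to -0.02 and for H2-Ab1 from -1.06 to 0.00. It ran from -1.12 to -0.02 for Ciita and from -0.88 to 0.30 for Ctss. Those of Cd74 and Ciita exclude no change, yet neither gene passed the threshold (adjusted p = 0.409 and 0.412 by limma). Their exact permutation tests gave p = 0.147 and 0.0844, so no change remains possible for both. Most of the difference between the groups lay in PBS 3 and PBS 5. These libraries stood apart beyond class II genes. On the first principal component of the 500 most variable other genes (36.0% of their variance) they scored 17.2 and 20.9. PBS 1, PBS 2 and PBS 4 lay at the opposite end, at -11.9, -12.6 and -13.0, and the DT mice between, from -9.09 (DT 3) to 10.5 (DT 5). PBS 3 and PBS 5 were the 2 highest mice for 8 of the 8 genes. Their mean level over the 8 genes was 1.89 and 1.63 times the average mouse (geometric mean). DT 3 was the lowest mouse for 6 of 8 genes, at 0.609 times the average. Without PBS 3 and PBS 5 the log2 fold changes were between -0.23 for Ciita and 0.12 for Ctss, with a median of -0.05. These mice were chosen for removal because they were the highest for these genes, so these values describe how much of the difference lay in them and test nothing.

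The 8 genes summed to 1891 to 4957 normalized counts after PBS and to 1346 to 2827 after DT. Levels of different genes are given here per kilobase of all annotated exons joined (GENCODE release 21), which assumes reads along the whole transcript. The methods of the study follow the QuantSeq guide, for a kit that reads the end of transcripts. Its reporting summary names a KAPA Stranded mRNA-Seq kit instead. Which kit was used was not settled, so the order of genes below depends on this assumption. In the PBS mice Cd74 was at 811 ± 353 normalized counts per kilobase (SD, n = 5), H2-Eb1 at 231 ± 88.5, H2-Ab1 at 217 ± 96.8, H2-Aa at 125 ± 52.1, Ctss at 71.6 ± 31.2, H2-DMb1 at 32.2 ± 11.4, H2-DMa at 19.1 ± 6.85 and Ciita at 3.70 ± 1.33. The order in the DT mice was the same, from 547 ± 132 for Cd74 to 2.42 ± 0.762 for Ciita (SD, n = 6). H2-Eb1 and H2-Ab1, neighbours in this order, did not differ beyond their spread, with H2-Eb1 at 0.974 to 1.43 times H2-Ab1 within a mouse. Per kilobase, H2-Aa was at 0.513 to 0.671 times H2-Ab1 and H2-DMa at 0.509 to 0.731 times H2-DMb1, below it in each mouse. Without division by length the mean of H2-DMa after PBS was above that of H2-DMb1 (65.8 and 54.1 normalized counts). Those of H2-Ab1 (557) and H2-Aa (474) were then above that of H2-Eb1 (449). Joined exons count each annotated isoform, which lowers the level of genes such as H2-Aa and H2-DMa whose joined length (3.80 and 3.45 kilobases) is long.

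The ratios of Cd74, H2-Aa and H2-Eb1 to H2-Ab1, and of H2-DMa to H2-DMb1, varied less among mice than the genes themselves. Cd74 spanned 3.99-fold and H2-Ab1 4.29-fold over the 11 mice, whereas Cd74 over H2-Ab1, per kilobase, stayed between 3.25 (DT 4) and 4.06 (DT 3), a 1.25-fold range. H2-Aa over H2-Ab1 spanned 1.31-fold, H2-Eb1 over H2-Ab1 1.47-fold and H2-DMa over H2-DMb1 1.44-fold. The other ratios were wider, at 2.07-fold for Ctss over H2-Ab1, 2.07-fold for H2-DMa over H2-Aa and 2.33-fold for Ciita over H2-Ab1, where H2-DMa itself spanned 2.33-fold and Ciita 3.20-fold. For each of these 7 ratios the PBS and DT mice overlapped.

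The spread among mice was larger than counting error for the abundant members. The SD of Cd74 was 43.5% of its mean after PBS and 24.1% after DT, while its counting error was about 2.98%. Among the 500 genes nearest to it in mean level, 98.8% had a smaller pooled SD within groups on the log2 scale than Cd74 (0.49), and the median of these neighbours was 0.10. The share was 99.6% for H2-Ab1, 99.2% for H2-Aa, 99.0% for H2-Eb1 and 95% for Ctss. It was 80.6% for H2-DMa, 73.0% for Ciita and 70.2% for H2-DMb1, whose counting errors of 13.3%, 18.5% and 14.7% are a larger part of their spread.

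Across the 11 mice the 28 pairs among the 8 genes had Pearson correlations between 0.60 (Ciita with Ctss) and 0.99 (Cd74 with H2-Ab1), with a median of 0.85. Centred within each group, the median was 0.83. Cd74 was compared with 13 genes on the log2 scale by permutation tests with 100000 resamples, adjusted over the 13. Its correlation with H2-Ab1 was r = 0.99 (rho = 0.99, permutation p = 1e-05, the smallest that these resamples can give, adjusted p = 6.5e-05). With H2-Aa it was r = 0.99 and rho = 0.96, and with H2-Eb1 r = 0.97 and rho = 0.92. Lower values were found for H2-DMb1 (r = 0.89, rho = 0.85), Ctss (r = 0.85, rho = 0.72), Ciita (r = 0.83, rho = 0.74) and H2-DMa (r = 0.82, rho = 0.73), with adjusted permutation p for r between 0.00143 and 0.00453. PBS 3 and PBS 5 are the mice farthest from the median of Cd74. Over the other 9 mice r was 0.97 for both I-A chains and 0.91 for H2-Eb1, each with an adjusted permutation p of at most 0.00218. For H2-DMb1, Ciita, Ctss and H2-DMa it was 0.62, 0.58, 0.70 and 0.42 with adjusted permutation p of 0.120, 0.158, 0.0723 and 0.351, so that they no longer passed a threshold of 0.05. Among the 6 DT mice, which include neither, r was 0.62 for H2-DMb1, 0.80 for Ciita, 0.76 for Ctss and 0.53 for H2-DMa, given as a description.

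**Figure D3:**
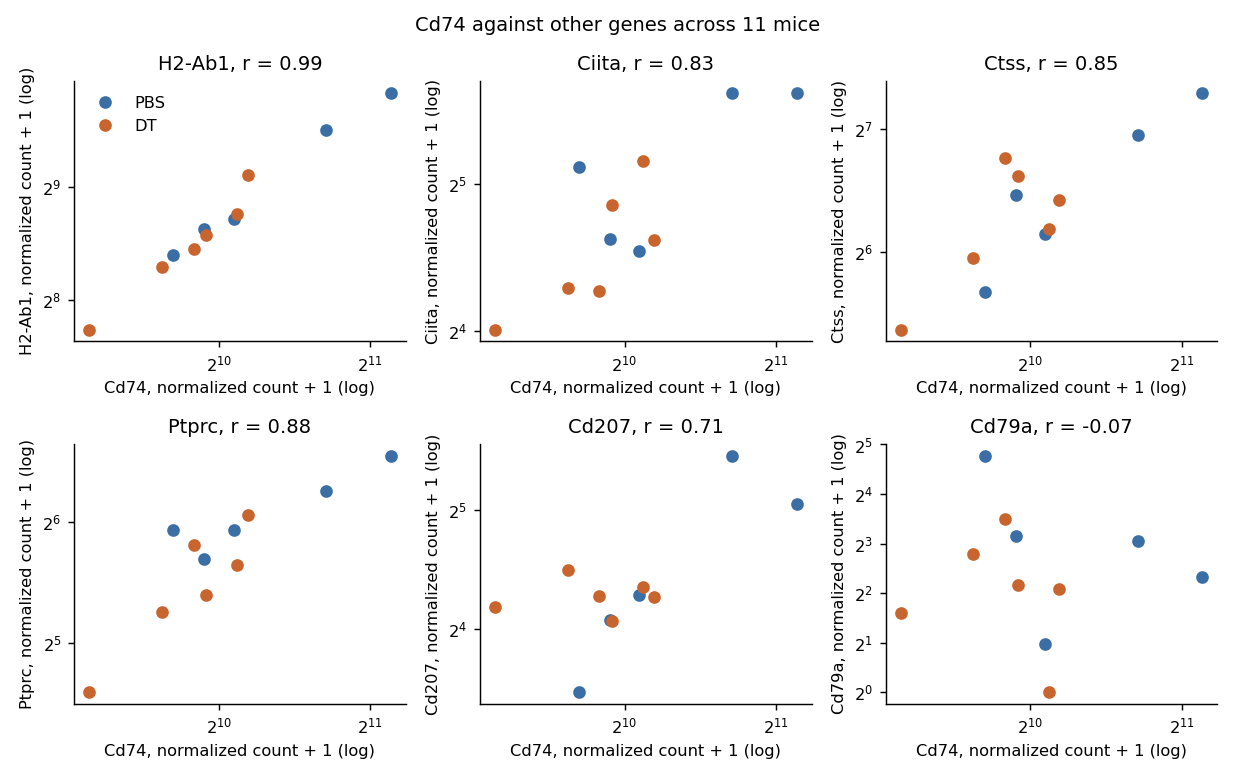
Cd74 (x axis) against 6 other genes (y axes), as normalized count + 1 on log axes, each point a mouse. H2-Ab1 follows Cd74 along the whole range (r = 0.99), Ptprc follows more loosely (r = 0.88), and Cd79a shows no such relation (r = -0.07).

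Markers of leukocytes moved with the class II genes. Ptprc, which encodes the pan-leukocyte surface protein CD45, had 50.9, 60.3, 92.5, 60.1 and 75.5 normalized counts in the PBS mice and 55.0, 49.0, 23.2, 65.5, 37.3 and 41.1 in the DT mice. Its correlation with Cd74 was r = 0.88 (rho = 0.79, adjusted permutation p = 0.00161 for r) and 0.83 without PBS 3 and PBS 5 (adjusted permutation p = 0.0300). The sum of the 8 pan-leukocyte markers, of which 8 had values, was 389.8 to 936 normalized counts after PBS and 219.6 to 528 after DT, highest in PBS 3 and PBS 5 and lowest in DT 3. Each of these 8 markers had a log2 fold change below 0 (median -0.65), where 52.7% of all genes were below 0, and none passed the threshold. At an unadjusted p under 0.05 there were 5 of 8, where 6.19% of all genes were lower after DT at that p. The markers followed the mean of the class II genes by mouse (r from 0.70 for Cd53 to 0.97 for Laptm5), so they are not 8 separate observations. The furthest from 0, named after the values were seen, were Rac2 at -1.11 (adjusted p = 0.144 by limma) and Cd53 at -0.85 (adjusted p = 0.203). Ptprc itself was at -0.62 (SE 0.23, adjusted p = 0.307 by limma). In a bulk sample fewer class II-expressing cells and less class II RNA per cell cannot be told apart, and the part of the leukocyte share in the class II values was not tested.

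Cd207, which encodes langerin, had 15.8, 18.5, 32.2, 10.0 and 43.0 normalized counts in the PBS mice and 18.3, 19.4, 17.1, 18.25, 21.6 and 15.8 in the DT mice. It was highest in PBS 5 and PBS 3, and its relation to Cd74 (r = 0.71, rho = 0.53, adjusted permutation p = 0.0220 for r and 0.108 for rho) was r = 0.16 without these mice (adjusted permutation p = 0.641). Within the DT mice Cd207 spanned 15.8 to 21.6 while Cd74 spanned 2.07-fold. Few reads lay behind these Cd207 values, as 1 read was worth 0.845 to 1.15 normalized counts in the DT mice. Counting error can hide a relation to Cd74 at this depth. Flt3, a receptor of dendritic cells, was low, between 1.96 and 16.1 normalized counts, yet kept its relation to Cd74 without PBS 3 and PBS 5 (r = 0.81 with and 0.90 without them, adjusted permutation p = 0.00516 and 6.9e-04). Adgre1, which encodes the macrophage protein F4/80, had r = 0.69, and 0.42 without the 2 mice (adjusted permutation p = 0.0220 and 0.351).

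Markers of B cells and plasma cells were low, and those of macrophages and dendritic cells were higher. The 8 B cell markers summed to 20.4 to 107 normalized counts after PBS and 22.5 to 44.7 after DT, with the highest sum in PBS 4, a mouse with low class II levels. Cd79a, a chain of the B cell receptor, had 26.4 normalized counts in PBS 4, between 0 (DT 2) and 10.3 in the others, and r = -0.07 with Cd74 (rho = -0.25, adjusted permutation p = 0.830 for r). Ms4a1, which encodes CD20, was at 0 in DT 4 and DT 5 and at most 8.20 normalized counts elsewhere. The plasma cell list had 1 of 6 markers with a value, summing to at most 3.15. The 8 of 10 dendritic cell markers with values summed to 102 to 238 after PBS and 79.6 to 158 after DT, and the 11 macrophage and monocyte markers to 336 to 601 and 325 to 463. Cd3e, a T cell receptor subunit, lay between 1.82 and 13.96 (r = 0.60, rho = 0.55, adjusted permutation p = 0.0611 for r). The 12 LC markers summed to 28577 to 30734 after PBS and 29084 to 32896 after DT, a sum set by genes such as Cd24a that keratinocytes also express. Of these 12 markers 7 were below 0, against 52.7% of all genes, and none passed the threshold. At an unadjusted p under 0.05, which 11.5% of all genes reached, there were 3 lower and 1 higher. These 4, named after their values were seen, were the transcription factor Runx3 at -0.73 (adjusted p = 0.250 by limma), the endocytic receptor Ly75 at -0.56 (adjusted p = 0.334), the growth factor receptor Csf1r at -0.46 (adjusted p = 0.397) and the transcription factor Mycl at 0.23 (adjusted p = 0.172). C1qa, a complement gene of macrophages, was at 42.0 ± 11.5 normalized counts after PBS (SD, n = 5) and 36.8 ± 7.47 after DT (SD, n = 6), and Col1a1, a fibroblast collagen, at 69.5 ± 27.1 and 45.3 ± 6.58. Krt14, a basal keratin, was between 176162 and 248769 in all 11 mice.

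**Figure D4:**
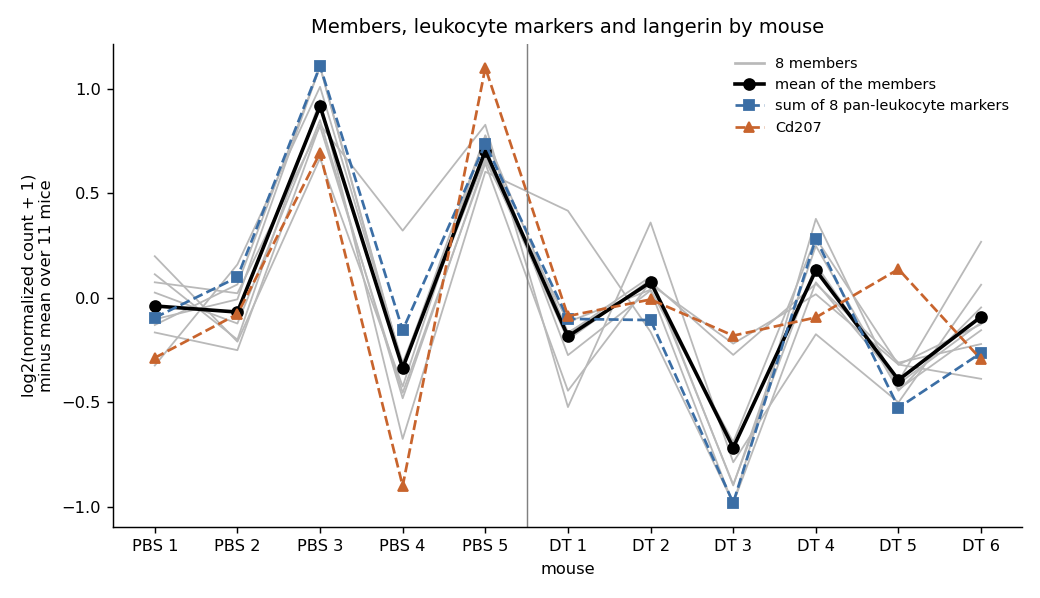
Log2(normalized count + 1) minus the mean over the 11 mice (y axis) by mouse (x axis) for the 8 genes (grey), their mean (black), the sum of the 8 pan-leukocyte markers (blue squares) and Cd207 (orange triangles). The black and blue lines peak at PBS 3 and PBS 5 and are lowest at DT 3. Cd207, at only 15.8 to 21.6 normalized counts there, is flat among the DT mice.

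Among 13469 other genes whose mean was 10 normalized counts or more, the 10 whose values over the 11 mice were most like the mean of the 8 genes had Pearson correlations between 0.93 and 0.97. They were Laptm5, Elf3, Lcp1, Vim, Hcls1, Itgax, Edem2, Add2, Tmem158 and Epcam, and 5 of them were also among the first 10 when values were centred within groups. Laptm5 (r = 0.97), a lysosomal protein of leukocytes, Lcp1 (r = 0.97), an actin-bundling protein of leukocytes, Hcls1 (r = 0.94), a signalling protein of blood cells, and Itgax (r = 0.94), which encodes CD11c, are expressed mainly in leukocytes. Elf3 (r = 0.97) is an epithelial transcription factor, and Epcam (r = 0.93) an adhesion molecule of epithelium and LCs. Elf3 was at 403 ± 133 normalized counts after PBS (SD, n = 5) and 298 ± 40.5 after DT (SD, n = 6). None of the 10 passed the threshold between DT and PBS (limma adjusted p from 0.262 to 0.827).

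Of 56 further genes of the pathway, 50 had values, and 0 of the 50 passed the threshold in either direction (limma, with 1 higher and 2 lower at an unadjusted p under 0.05). Among all genes tested 0.558% passed the threshold and 11.5% reached the unadjusted p. The median log2 fold change of the 50 genes was -0.05. Among other class II loci, H2-DMb2, a close copy of H2-DMb1 with which reads may be shared, was at 18.1 ± 7.26 normalized counts after PBS (SD, n = 5) and 11.5 ± 3.375 after DT (SD, n = 6), a log2 fold change of -0.56 (limma adjusted p = 0.471). H2-Eb2 (-0.73) and H2-Oa (-0.33), the alpha chain of the H2-DM inhibitor, had means under 5 normalized counts in both groups. H2-Ob, the beta chain of that inhibitor, was at 0.27.

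Of the 13 endosomal processing genes 11 were above 0, with a median log2 fold change of 0.06, where 52.7% of all genes were below 0. Ctsl, which encodes cathepsin L, a protease that trims the invariant chain in thymic epithelium, was at 2986 ± 313 normalized counts after PBS (SD, n = 5) and 3512 ± 142 after DT (SD, n = 6). Its log2 fold change of 0.24 (SE 0.06, adjusted p = 0.151 by limma) missed the threshold, and passed it without PBS 5 (0.30, limma adjusted p = 0.0181) and with array weights (0.26, limma adjusted p = 0.0425). Lamp2 (0.08), a lysosomal membrane protein, and Ctsc (0.09), a peptidase, followed in order of p. Ctsz (-0.05), a carboxypeptidase, and Ifi30 (-0.01), the thiol reductase GILT, were the members of this list below 0.

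Of 14 regulators of class II transcription 11 were below 0, with a median of -0.10, where 52.7% of all genes were below 0. Rfx5, a subunit of the RFX complex, was at 376 ± 36.2 normalized counts after PBS (SD, n = 5) and 322 ± 39.9 after DT (SD, n = 6), a log2 fold change of -0.23 (SE 0.09, adjusted p = 0.349 by limma). Its correlation with the mean of the 8 genes was r = -0.10. Across this list r ran from -0.41 for Nfya to 0.92 for Spi1, the lowest and highest, named after the values were seen. Irf4, a factor of antigen-presenting cells, was at -0.80 from 6.95 ± 2.46 and 3.69 ± 1.84 normalized counts (limma adjusted p = 0.404). Spib, an Ets factor, was at -0.55 from low means of 4.97 after PBS and 3.36 after DT. Rfxap (0.09), Nfyc (0.08) and Nfya (0.05), subunits of RFX and NF-Y, were above 0.

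The remaining lists showed 0 calls as well. In interferon gamma receptor signaling, Jak1, a receptor kinase, was at 0.07, Ifngr1, a receptor chain, at 0.11, Jak2 at -0.07, Socs1, an inhibitor, at -0.18 and Ifngr2 at -0.03, and Ifng itself was listed without a value. Among the genes of surface turnover and CD74 partners, the values furthest from 0 were 0.30 for Cd83, which stabilises class II at the surface, and -0.33 for Cxcr4, a receptor that partners CD74. Marchf8, a ubiquitin ligase of class II, was at 0.05, Cd44 at -0.06, and Mif, a ligand of CD74, at -0.03. Among genes of co-stimulation and T cell contact 7 of 8 were below 0, where 52.7% of all genes were. The low genes Cd4 (means of 5.56 normalized counts after PBS and 3.03 after DT) and Cd40 (5.75 and 2.98) were at -0.72 and -0.54. Icam1 was at -0.18, while Icosl was at 0.02. Marchf1, a ubiquitin ligase of class II in dendritic cells, was at 0.02.

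**Figure D5:**
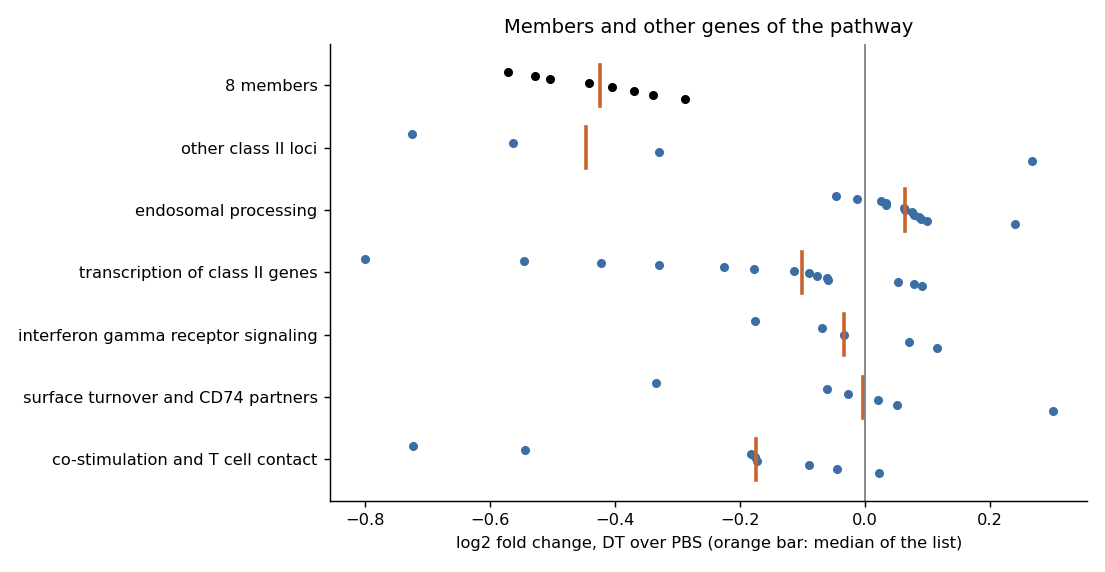
Log2 fold change of DT over PBS (x axis) for the 8 genes and the 6 lists of other genes of the pathway (y axis), each point a gene and each orange bar the median of the list. The 8 genes lie below 0 (median -0.42), and the 13 endosomal processing genes lie near 0 (median 0.06).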

How the data were processed

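RNA-seq of gingival epithelium from 5 PBS and 6 DT mice was examined. Per the labels, reads were trimmed with cutadapt 2.10, aligned with TopHat2 2.1.1, counted with HTSeq 2.01 and normalized with DESeq2 1.36.0. The labels name GRCm39 and the methods of the study GRCm38 with other versions, and 3333 of the 55414 identifiers listed are not in GENCODE release 21, so positions are given for promoter windows alone. The authors deposited normalized counts (reads divided by a size factor per mouse). Of the genes listed, 19170 have values and 36244 do not. The values of a mouse are steps of what 1 read is worth (100% within 0.01 read), from which depth was recovered as 17509328 to 24325513 reads per mouse. Recovered reads served to describe depth and counting error.

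Differences were fitted with limma 3.58.1 in R 4.3.3 (trend, no covariate, all 11 mice) on log2(normalized count + 1), a scale that understates the change of low genes. The labels do not tell litters or cages, so p-values measure the spread between these mice. On simulated data with 200 genes of a mean of at least 50 normalized counts changed 2-fold among 19170, 197 were recovered and 10 unchanged genes were called. The changed genes were picked at random and drawn independently. The share recovered therefore does not hold for genes of wide, shared spread such as Cd74, H2-Aa, H2-Ab1 and H2-Eb1. Nor does it cover lower genes such as Ciita and H2-DMb1. Correlations and exact tests used Python 3.11.15. A fit across all genes was made under 21 settings in all, of which 19 alternatives were planned (pseudocounts, a filter, TMM and upper-quartile scaling, array weights, blocks on replicate numbers, and each mouse left out). The other, without PBS 3 and PBS 5, was added after the values of the 8 genes had been seen, because these mice were the highest for them. The genes and lists were chosen with earlier results of these data known. Genes were named by rule: the 8 genes, in each pathway list those past the threshold or else up to 3 with the smallest p in each direction, 12 defining markers, and the 10 genes most like the 8 genes over the mice.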

Additional observations from a re-analysis of the deposited data

Results flagged for a closer look

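In groups of 5 or 6 mice a value was set aside for a closer look when its gap to the nearest mouse was a large share of the range of the group (Dixon's test at 95%). Chance sets aside about 1 in 20 groups. Of 115 groups examined over 70 genes of the pathway and marker lists, 4 held such a value, and none of these was of the 8 class II genes. Lamp2 was at 7464 normalized counts in DT 5, against 6814 to 6977 in the other DT mice. Ifngr1 was at 326 in DT 3, against 392 to 406 in the others. Jak2 was at 479 in DT 3, against 556 to 583 in the others. Marchf8 was at 3009 in PBS 5, against 2474 to 2564 in the other PBS mice.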

How the results depend on the processing

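None of the 8 genes passed the threshold under any of the 20 alternatives, and in the 19 planned ones each of their 152 log2 fold changes was below 0 (from -0.71 to -0.09, lowest adjusted p 0.253 by limma). Without PBS 3 and PBS 5, a choice made after these mice had been seen to be the highest for the 8 genes, H2-Eb1 was at 0.038 and Ctss at 0.12, so the direction turned. The same choice raised the genes called from 107 to 1967 and the other pathway genes called from 0 to 7, the cause was not tested, and these counts support nothing, since the mice were removed for their values. Leaving out each mouse in turn gave 27 (without DT 5) to 259 genes called (without PBS 5), and 0 to 1 pathway genes. Array weights gave 189 genes and 1 pathway gene (Ctsl). The replicate block gave 35 genes by title number and 0 by library number (limma, 1404 at an unadjusted p under 0.05), with medians of -0.44 and -0.39 for the 8 genes. A block gives no weight to the mouse without a partner (DT 6 by title number, DT 5 by library number), and leaving out that mouse alone gave 30 and 27 genes; same-numbered mice correlated between -0.23 and 0.32, so the numbers were not taken to pair the mice, and no class II gene changed its call under the block. Of the correlations with Cd74, 6 lost their threshold without the 2 farthest mice, and Cd3e gained it when centred within groups (r = 0.78). The tests with edgeR and DESeq2 on recovered reads, planned as alternatives, were left out because the deposited unit is a normalized one. Ciita, with 15 to 48 reads per mouse, is limited by depth.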
